A study of Mus musculus with 2 samples.

Results

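Transcripts of 10 digestive enzymes of the exocrine pancreas were followed in liver RNA from fibrotic mice given TSG-6 or PBS. They were the trypsins Prss2, Try4 and Try5, the chymotrypsin Ctrb1, the elastases Cela1, Cela2a and Cela3b, the carboxypeptidases Cpa1 and Cpb1, and the pancreatic lipase Pnlip. The genes were listed by name, with earlier results of these data known. Each was read from the non-control probe whose accession is a RefSeq transcript of that gene. All 10 were found, among 20284 genes with a named probe. The PBS group was male C57BL/6 mice with liver fibrosis given PBS, the vehicle, and the TSG-6 group was fibrotic male mice of the same strain given recombinant TSG-6, a secreted protein that binds hyaluronan and damps inflammation, by the intravenous route. Both groups carried fibrosis, and no liver without fibrosis was analysed here. How fibrosis was induced, the ages and the doses are not given in the sources used here. Liver RNA was taken 2 weeks later and equal amounts from 3 mice went into each group's mixture, so each group is 1 pool on 1 one-colour Agilent array.

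With 1 array per group there was no replicate and no test. Every difference is that between these 2 pools, and the array and the group cannot be told apart. A level is the log2 signal relative to the array's own 75th percentile, which was a signal of 3158 in the PBS pool and 2476 in the other, and a difference is the TSG-6 level minus the PBS level. A probe counted as measured when the scanner software marked it well above background. Where only the PBS array measured it, the fold is a lower bound, taken to the dim probe's own level or to the lowest detected level of the TSG-6 array, whichever was higher (-7.06, a signal of 19.1; on the PBS array -7.04, a signal of 25.9). Each of the 10 genes had 1 probe and 1 spot, none flagged as an outlier and none saturated. The noise of 1 spot is therefore known only from other probes. Over 69 dim probes (mean level below -3) with replicate spots well above background on both arrays, the pooled SD of the log2 difference between spots was 0.208. It leaves out the spread between mice and does not cover spots below the detection limit. There the spread can be wider: the 10 spots of the glucagon gene Gcg on the TSG-6 array, 1 of them well above background, had levels from -9.26 to -6.67. Probes differ in their response, so levels are compared between arrays and not between genes.

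Acinar cells of the pancreas make these enzymes in bulk and store most of them as inactive zymogens. Trypsin, once cleaved by enteropeptidase in the gut, activates the other zymogens: chymotrypsins and elastases cut proteins internally, and carboxypeptidases trim their ends. Pancreatic lipase, with its cofactor colipase, digests fat. The PTF1 transcription factor complex, built on Ptf1a and Rbpjl, drives these genes in acinar cells. Hepatocytes are not their usual source.

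All 10 enzyme transcripts were well above background in the PBS pool and 6 were in the TSG-6 pool, while over all genes with values 1.44% were so in the PBS pool only and 2.05% in the TSG-6 pool only. Of these 6, 4 were lower after TSG-6 by 2-fold or more (Prss2, Try5, Ctrb1 and Cela1), 1 was at least 2-fold higher (Cela2a) and 1 differed by less (Cela3b). Of the 4 measured in the PBS pool only, 3 were lower by a bound of at least 2-fold (Try4, Pnlip and Cpa1), and the bound for Cpb1 was smaller. A gene measured in the PBS pool only can be called lower but never higher, and 34.7% of all 274 such genes were called lower. The lower calls were thus 7 of 10. Of the 15815 genes measured on at least 1 array, 4.71% were at least 2-fold lower by value or bound and 3.18% were higher. The enzymes were chosen with earlier results of these data known, so their count beside these shares is a description only. Of the 15151 genes measured in both pools, 4.29% were lower by 2-fold or more and 2.94% higher, 7.23% in all, and among the 4141 of them with a mean level below -3 the shares were 6.28% and 4.59%. Among the 5619 whose mean level lay in the range of the 6 measured enzymes, -5.20 to -0.69, 7.55% were lower and 4.36% higher. The 6 differences had a median of -2.06, against 0.08 over all 15151 genes. Without Cela1, which lay far above background in both pools, the median over the other 5 was -2.41. In whole-liver RNA, fewer cells that carry a transcript and less of it per cell cannot be told apart. Pancreatic tissue carried over into a pool at dissection cannot be told apart from these either, and it was not tested.

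**Figure D1:**
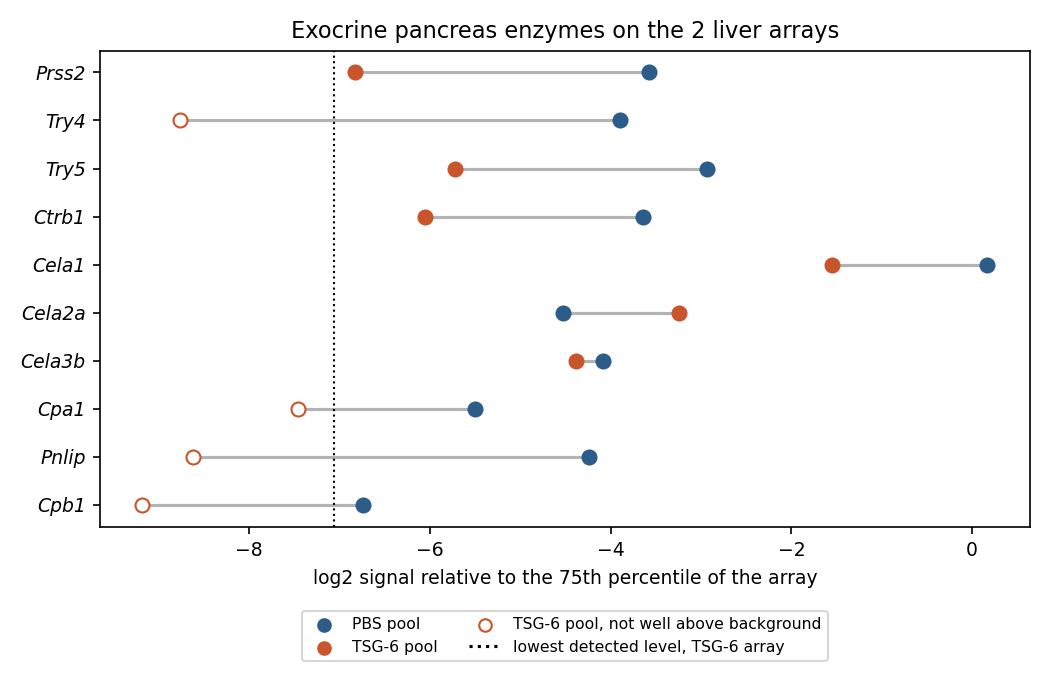
Log2 signal relative to the 75th percentile of each array (x axis) for the 10 enzyme genes (y axis), 1 spot per gene and array; filled points were well above background, open points were not, and the dotted line is the lowest detected level of the TSG-6 array. The PBS point lies to the right of the TSG-6 point for 9 of 10 genes, and Cela2a runs the other way.

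The trypsins gave some of the largest contrasts. Prss2, anionic trypsin, gave a signal of 265 after PBS and 21.8 after TSG-6, levels of -3.57 and -6.83. It was 9.55-fold lower in the TSG-6 pool, where it lay just above the detection limit. Try5 gave 414 and 47.0, levels of -2.93 and -5.72, and was 6.91-fold lower. Try4 gave 212 after PBS (a level of -3.90) and 5.72, not well above background, after TSG-6 (-8.76), and was at least 8.95-fold lower. All 3 trypsins were thus measured after PBS, and of them Prss2 and Try5 were still above background after TSG-6. These genes lie together on chromosome 6: in the RefSeq gene order of GRCm38.p6, Try4 and Try5 are neighbours, followed by Try10, Prss3, Gm5771, Gm10334, Prss1 and Prss2. Trypsin paralogs are close in sequence, so a probe of one may also read another, and the values of single trypsins are uncertain. Dim signals also depend on the background correction: under normexp the log2 values were -1.44 for Prss2, -1.57 for Try5 and -1.49 for Try4, still past 2-fold but smaller.

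The other trypsin genes were set beside these 3 after the data had been seen; Prss1 and Gm5771 are also on the list of other acinar secretory genes. Prss1, read by 2 probes, was measured in the PBS pool only, with signals of 167 and 62.2 there, and was at least 7.06-fold and at least 2.63-fold lower by the respective probes. Gm5771, a trypsin-like gene, had a signal of 89.1 in the PBS pool only and was at least 3.76-fold lower. Gm10334, 2210010C04Rik and 1810009J06Rik were not well above background on either array, so not every gene of the family gave a signal.

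Ctrb1, chymotrypsinogen B, gave a signal of 253 after PBS and 37.5 after TSG-6, levels of -3.64 and -6.05, and was 5.30-fold lower in the TSG-6 pool, a log2 difference of -2.41 that was -1.19 under normexp. Its relative Ctrl, a chymotrypsin-like protease from the list of other acinar genes, gave 586 and 535, a difference of 0.22. Of the chymotrypsin-type genes, Ctrb1 thus passed 2-fold and Ctrl did not.

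The elastases did not move as a group. Cela1 gave a signal of 3544 after PBS and 843 after TSG-6, levels of 0.17 and -1.55, and was 3.30-fold lower in the TSG-6 pool; it stayed far above background on both. Cela2a gave 137 and 262, levels of -4.53 and -3.24, and was 2.44-fold higher in the TSG-6 pool. Its difference of 1.29 was 0.97 under normexp background correction and 0.91 after spike-in scaling, both under 2-fold. Cela3b gave 187 and 119, levels of -4.08 and -4.38, a difference of -0.30. The paralog Cela3a had 2 probes that disagreed: one gave 1148 and 1069 (a difference of 0.25), and the other gave 114 after PBS and 4.04, not well above background, after TSG-6, at least 4.79-fold lower. The value taken for Cela3a is that of the first, which was measured on both arrays.

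Both carboxypeptidases were measured in the PBS pool only. Cpa1, which removes aromatic and aliphatic end residues, gave a signal of 70.0 after PBS and 14.1 after TSG-6, and was at least 2.95-fold lower. Under normexp background correction its log2 value was -0.41, less than 2-fold. Cpb1, which removes basic end residues, gave 29.6, close to the detection limit of the PBS array, and 4.26. Its bound was only 1.25-fold, so its size could not be determined at this signal. Pnlip gave 168 after PBS and 6.32 after TSG-6 and was at least 7.08-fold lower, a log2 bound of -2.82 that was -1.35 under normexp. Its level of -4.24 in the PBS pool was well clear of the limit, unlike that of Cpb1.

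**Figure D2:**
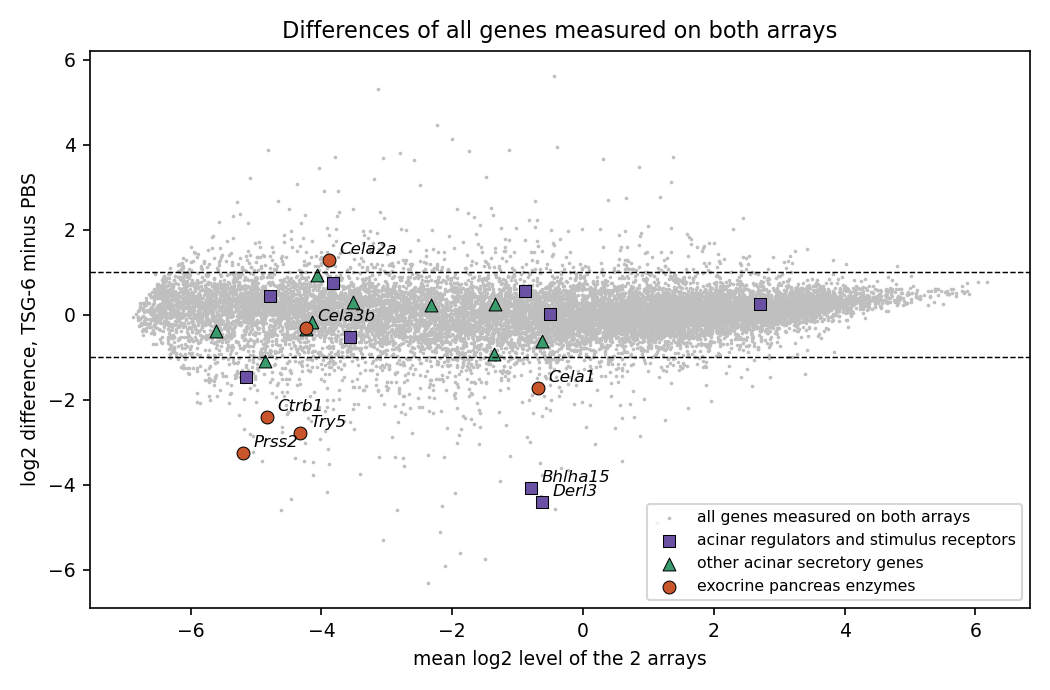
Log2 difference, TSG-6 minus PBS (y axis), against the mean log2 level of the 2 arrays (x axis) for the 15151 genes measured on both; dashed lines mark 2-fold. Prss2, Try5, Ctrb1 and Cela1 lie below the lower line and Cela2a above the upper one, while 9 of the 10 other acinar secretory genes measured on both arrays lie between the lines.

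The start regions of these genes show what they share outside the array. RefSeq promoter windows (GRCm38.p6) were at hand for 9 of the 10 genes, all but Try5. The 250 bases before the start are printed for 6 of the 9. They are Prss2 and Try4 of the trypsin cluster, Cela1 and Pnlip, which were also lower, and Cela3b and Cela2a, which were not. The windows of Ctrb1 and Cpa1, also lower, and of Cpb1 are not printed. Capitals mark 3 motifs, each on either strand. CACCTG is an E-box of the type bound by basic helix-loop-helix factors. TTTCCC is the core of the TC-box that PTF1 binds beside an E-box, and TATAAA is a TATA box sequence. Only these exact letters were searched, so a window without TATAAA can still hold TATA-like letters. The windows are Prss2 (chr6:41521526-41521775, plus strand), Try4 (chr6:41302022-41302271, plus strand), Cela1 (chr15:100687921-100688170, minus strand), Pnlip (chr19:58670115-58670364, plus strand), Cela3b (chr4:137430521-137430770, minus strand) and Cela2a (chr4:141826006-141826255, minus strand), each read 5′ to 3′ along the gene.
Prss2: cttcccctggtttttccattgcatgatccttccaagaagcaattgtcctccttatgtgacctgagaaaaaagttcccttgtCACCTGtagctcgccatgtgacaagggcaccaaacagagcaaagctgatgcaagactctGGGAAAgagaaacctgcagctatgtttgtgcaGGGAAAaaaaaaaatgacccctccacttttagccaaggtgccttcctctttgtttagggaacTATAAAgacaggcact
Try4: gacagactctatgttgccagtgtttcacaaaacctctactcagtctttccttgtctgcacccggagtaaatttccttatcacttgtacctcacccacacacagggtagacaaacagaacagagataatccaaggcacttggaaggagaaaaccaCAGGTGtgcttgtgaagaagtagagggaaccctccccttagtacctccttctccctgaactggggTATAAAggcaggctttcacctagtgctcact
Cela1: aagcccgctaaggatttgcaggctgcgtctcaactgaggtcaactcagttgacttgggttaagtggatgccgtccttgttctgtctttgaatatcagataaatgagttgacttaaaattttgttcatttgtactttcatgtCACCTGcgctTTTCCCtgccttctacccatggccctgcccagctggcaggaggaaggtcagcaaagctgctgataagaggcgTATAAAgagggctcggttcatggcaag
Pnlip: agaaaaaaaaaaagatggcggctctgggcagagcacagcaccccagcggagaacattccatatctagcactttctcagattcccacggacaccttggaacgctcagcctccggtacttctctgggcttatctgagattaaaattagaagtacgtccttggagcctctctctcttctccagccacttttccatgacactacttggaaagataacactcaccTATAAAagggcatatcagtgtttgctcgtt
Cela3b: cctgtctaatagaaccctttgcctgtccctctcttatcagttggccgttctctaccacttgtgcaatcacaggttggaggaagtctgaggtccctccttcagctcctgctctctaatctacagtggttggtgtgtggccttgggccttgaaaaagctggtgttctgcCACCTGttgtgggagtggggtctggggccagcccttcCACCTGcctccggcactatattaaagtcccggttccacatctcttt
Cela2a: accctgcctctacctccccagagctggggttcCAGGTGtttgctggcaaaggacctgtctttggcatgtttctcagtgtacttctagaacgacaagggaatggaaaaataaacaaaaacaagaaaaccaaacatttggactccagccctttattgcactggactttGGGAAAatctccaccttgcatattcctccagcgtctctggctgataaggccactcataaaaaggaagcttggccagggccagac
CACCTG was present in 6 of the 9 windows and in 17.2% of all 32851 promoter windows of the same length. TTTCCC was present in 5 of 9 against 21.9%, and TATAAA in 4 of 9 against 12.4%. The 3 motifs do not overlap one another in these windows. In Cela1 the first base of CACCTG lies 109 bases and that of TTTCCC 99 bases before the start. Prss2 holds CACCTG at 169 and TTTCCC on the other strand at 110 and 78 bases before the start. Cela2a, which ran opposite to the others, also holds both motifs (218 and 84 bases before the start, on the other strand), and Cela3b holds CACCTG at 83 and 46 bases before it. In the 6 windows printed, CACCTG and TTTCCC occur both in genes that were lower and in genes that were not. The exact letters TATAAA occur in Prss2, Try4, Cela1 and Pnlip, all lower, and not in Cela3b or Cela2a. They are also absent from the windows of Cpa1 and Ctrb1, which were lower, and of Cpb1. The windows of Prss2 and Try4 were 59.3% identical over their alignment, the highest of 36 pairs, where the median pair was 48.8% identical. A match of these letters is a description and not evidence of binding.

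Of 34 further acinar secretory genes on a list, 25 had values, 14 were well above background in the PBS pool and 10 in the TSG-6 pool. Of the 10 measured on both arrays, 1 was at least 2-fold lower and none at least 2-fold higher, with a median difference of -0.26. All 4 measured in the PBS pool only were lower by bounds of at least 2-fold: Prss1 and Gm5771, given above, and the acinar secretory proteins Reg2 (signals of 97.4 and 8.46, at least 4.11-fold) and Reg1 (81.9 and 4.38, at least 3.45-fold). Of all 274 genes measured in the PBS pool only, 34.7% had such a bound. Under normexp background correction, Prss1 alone of these 5 genes passed 2-fold.

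Several standard acinar products differed by less than 2-fold. Cel, the bile salt-activated lipase, gave signals of 189 and 117 (a difference of -0.34), and Sycn, the zymogen granule protein syncollin, gave 250 and 242 (0.30). Clps, colipase, had 2 probes: one gave 190 and 132 (-0.18), and the dimmer one gave 27.8 and 6.51, measured in the PBS pool only. Spink1, a trypsin inhibitor of acinar cells, gave 1697 and 696 and differed by -0.93, which is 1.91-fold lower. It passed 2-fold under median, loess and spike-in scaling (down to -1.31). Not well above background on either array were 11 genes, among them Pla2g1b (pancreatic phospholipase A2), Pnliprp1, Gp2, Cuzd1 and Rnase1, which are abundant in acinar cells. The 2 probes of Amy2a5, pancreatic amylase, were bright, at 14221 and 6840 after PBS and 14824 and 7375 after TSG-6. Both had an outlier flag on at least 1 array, so it has no value here, and it shares sequence with Amy1 (signals of 33723 and 36297), an amylase that liver makes. Some defining products of acinar cells were thus measured on these arrays and others were not. The summed signal of the 10 enzymes was 1.67 times the 75th-percentile signal in the PBS pool and 0.550 times in the TSG-6 pool, and 0.550 and 0.209 without Cela1.

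Genes that regulate acinar cells or serve their secretory pathway were mixed. Ptf1a, the defining factor, was not well above background on either array, with signals of 7.99 and 8.05. Its partner Rbpjl gave 97.5 and 104, a difference of 0.45. Bhlha15 (Mist1), a factor of secretory cells that organises the zymogen machinery, was bright in the PBS pool at 7460 and gave 346 in the TSG-6 pool, 16.9-fold lower. Derl3, a component of protein degradation in the endoplasmic reticulum, gave 9404 and 348 and was 21.2-fold lower. Tmed6, a protein of vesicle trafficking, was 2.77-fold lower with its brighter probe (148 and 42.0), a log2 difference of -1.47, which was -0.70 under normexp and so under 2-fold. Of the 9 genes of this list measured on both arrays, these 3 were at least 2-fold lower, none was at least 2-fold higher, and the median difference was 0.01. Bhlha15 and Derl3 are also expressed in other secretory cells and under stress of the endoplasmic reticulum. In the list of endoplasmic reticulum secretory machinery, 4 of 21 measured genes were at least 2-fold lower and none higher (median -0.15). Over all genes measured on both arrays, the shares were 4.29% and 2.94%. The counts depend on the probe taken for each gene. A dimmer probe passed 2-fold for Dnajb11 (1.47, against -0.72 for the probe used), Pdia6 (-1.09 against -0.32) and Spcs2 (-1.27 against -0.14). The chaperone Hyou1 was 3.75-fold lower on a dim probe (signals of 256 and 53.5). Sdf2l1 was 2.76-fold lower and Dnajc3 2.38-fold, and Creld2 lay at the 2-fold limit. Under normexp Hyou1 was at -0.90 and Creld2 at -0.95 on the log2 scale, and with the percentile of unflagged spots Dnajc3 was at -0.96 and Creld2 at -0.71, all under 2-fold. Its summed signal was 195 times the 75th-percentile signal in the PBS pool and 170 times in the TSG-6 pool. Of 9 measured plasma cell markers, only Derl3 was past 2-fold (median 0.08), and Mzb1 (0.49) and Tnfrsf17 (0.42) did not pass it. The part of these lists in the enzyme differences was not tested.

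**Figure D3:**
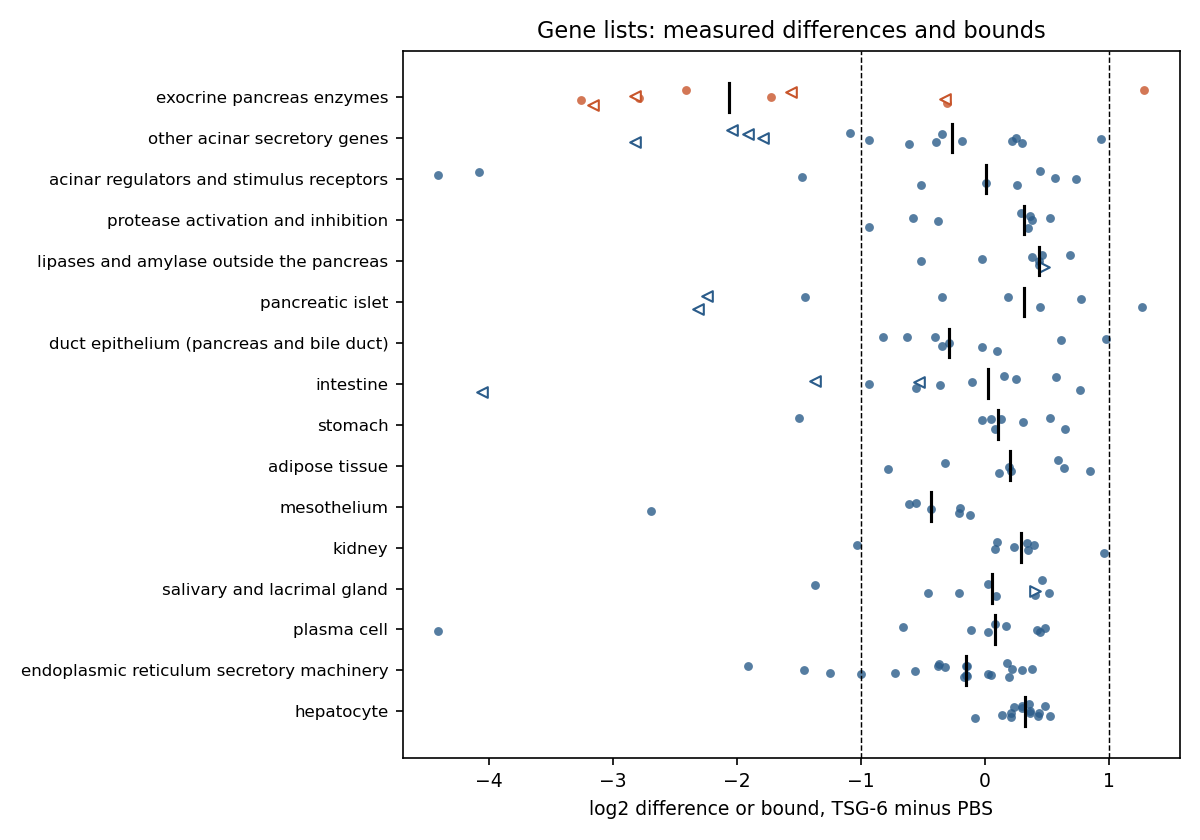
Log2 difference, TSG-6 minus PBS (x axis), of the genes of each list (y axis); points are genes measured on both arrays, open triangles are bounds for genes measured on 1 array, bars are medians over the points and dashed lines mark 2-fold. The enzymes have the lowest median, -2.06, and Derl3 stands in 2 lists.

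Endocrine cells share the pancreas with acinar cells, and their hormones were read beside the enzymes. Gcg, glucagon, has 10 spots: all 10 were well above background in the PBS pool, with signals from 109 to 134, and 1 of 10 was in the TSG-6 pool, with signals from 4.05 to 24.3. The spots of the 2 arrays did not overlap, and Gcg was at least 4.94-fold lower after TSG-6, a log2 bound of -2.31, which was -0.86 under normexp and so under 2-fold. Ins2, an insulin gene, gave 213 and 190 (a difference of 0.19), and Ins1 gave 40.9 and 55.0 (0.78). Sst, Iapp, Ppy and Pyy were not well above background on either array. Chga, a granin of endocrine cells and nerves, was 2.74-fold lower, Scg2 at least 4.71-fold lower, and the zinc transporter Slc30a8 2.41-fold higher at signals of 32.4 and 61.1. Under normexp none of these 3 passed 2-fold, with log2 values of -0.45, -0.65 and 0.53. In all, 8 of 17 islet genes were above background in the PBS pool and 6 in the TSG-6 pool, and the 6 had a median difference of 0.32. The list summed to 0.260 times the 75th-percentile signal in the PBS pool and 0.215 times in the TSG-6 pool.

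Markers of neighbouring tissues gave few such contrasts. Duct epithelium, of the pancreas and the bile ducts alike, had no gene past 2-fold among 9 measured (median -0.29). Krt19 gave 2833 and 1815 there (-0.29), Cftr was not well above background, and the 10 spots of Sox9 were all flagged on the TSG-6 array, so it has no value (signals from 6255 to 7953 after PBS, 8 of 10 flagged, and from 2354 to 3490 after TSG-6). Of the intestine list none of 8 measured genes passed 2-fold (median 0.03), while Mep1b, a meprin protease subunit of intestine and kidney, was at least 16.7-fold lower, with a signal of 396 after PBS, and Reg3g at least 2.58-fold lower, though -0.46 on the log2 scale under normexp. Muc2, Cdx1 and Cdx2, which define intestinal epithelium, were not well above background on either array, while Fabp2 (-0.10) and Vil1 (-0.36) were measured on both. Of the stomach list, 1 of 8 genes was lower, the proton pump subunit Atp4a (2.82-fold, and under 2-fold at -0.72 on the log2 scale under normexp), with a median of 0.10, and Gkn1 was not well above background. The adipose list had none of 8 past 2-fold (median 0.21, with Adipoq at 3060 and 3624). The mesothelial list had 1 of 7 lower (median -0.43), Krt5, whose probes gave -2.69 and 0.19, the latter being its value under the stricter filter on dim probes, while Msln differed by -0.20. The kidney list had 1 of 8 lower, Miox (2.04-fold, and under 2-fold at -0.85 under normexp and -0.74 with the percentile of unflagged spots), and Umod was not well above background. The salivary and lacrimal list had 1 of 8 lower (median 0.06). Their part in the enzyme differences was not tested.

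Liver transcripts on both arrays lay close together. None of 14 measured hepatocyte genes passed 2-fold, with a median difference of 0.33, and Alb gave signals of 62503 and 63130. Among genes that activate or inhibit trypsin, none of 8 measured passed 2-fold (median 0.32). Tmprss15, the enteropeptidase that activates trypsinogen, and F2rl1, the receptor cleaved by trypsin, were not well above background on either array, while the serpins of the Serpina1 family, which inhibit elastase and trypsin, were bright on both. Lipases and amylase made outside the pancreas had none of 7 past 2-fold (median 0.44), among them the hepatic lipase Lipc at 16497 and 17600.

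With only 2 arrays, the likeness of another gene to the enzymes can be read from its difference alone. Among genes outside these lists at or above the median level, the 5 whose difference lay nearest to the enzymes' median of -2.06 were Gnat2 (-2.05), Anxa3 (-2.09), Pmm1 (-2.03), Nrg1 (-2.11) and Hid1 (-2.12). Each was at least 4-fold lower after TSG-6.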

How the data were processed

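Liver RNA of 3 mice per group was mixed, 0.2 ug was labelled with Cy3 and each mixture was hybridised to 1 array, per the labels' protocols. The deposited scanner files hold spot intensity as a processed signal that the software had corrected for background and for trends over the slide, per the file headers (Agilent Feature Extraction 11.5.1.1; the submitters' processing notes name 10.7). The deposited value table holds log2 values equal to the levels defined next plus 1 constant per array (0.204 for PBS, 0.199 for TSG-6); its column medians were -3.90 and -3.77, so scale and direction are known.

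Levels were log2 processed signal minus the log2 of the 75th percentile over the 59305 non-control spots. Spots with an outlier flag (3.40% and 6.44%) were left out, and replicate spots were averaged. Accessions were matched to symbols through RefSeq (GRCm38.p6, names only; the array was designed on mm9): 26762 of 55681 probes matched. A gene was read from the probe measured on the most arrays, then the brightest; a probe with replicate spots was measured when 50% of them or more stood well above background. Genes past 2-fold were counted, with no test. Beside the enzymes, the text names defining markers and up to 4 genes past 2-fold per list, largest first; further genes are examples picked after their values were seen, and some genes past 2-fold are not reported here. The enzymes and lists were chosen with earlier results of these data known. Python 3.11.15 and limma 3.58.1 (normexp, on median spot and local background signals) were used, and the steps were tested on simulated data.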

Additional observations from a re-analysis of the deposited data

How the results depend on the processing

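The enzymes were recomputed under 12 alternatives; the slide could not be used as a block, since both arrays lie on 1 slide, and no paired analysis was possible because each group is 1 array. Cela1, Ctrb1, Pnlip, Prss2, Try4 and Try5 were at least 2-fold lower under all 12 and Cpa1 under 11. The median of the enzymes measured on both arrays, -2.06 as reported, was -1.32 under normexp, -1.72 with the stricter filter on dim probes (5 enzymes), -1.77 with the percentile of unflagged spots, -2.19 after loess, -2.42 with no filter (all 10 enzymes) and -2.44 after spike-in scaling. Chosen after seeing the data, leaving out Cela1 gave -2.41, and counting only genes measured on both arrays gave 5 past 2-fold, 4 of them lower. The median of the other acinar secretory genes, -0.26, was -0.04 under normexp, -0.06 with no filter (25 genes), 0.03 with the percentile of unflagged spots, -0.39 after quantile normalization, -0.44 after loess and -0.63 after spike-in scaling; 1 of them passed 2-fold under normexp (Prss1) and 8 with no filter, against 5. Krt5 turned from -2.69 to 0.19 with the stricter filter, which takes its other probe. The normexp fit compresses dim signals by its offset of 50; the cause of the other shifts was not tested. All genes past 2-fold numbered 692 under normexp and 1862 with no filter, against 1096. The median difference of all genes, 0.08, was -0.03, -0.04 and -0.06 after quantile, median and loess scaling, -0.30 after spike-in scaling and 0.37 with the percentile of unflagged spots. Higher genes were 40.7% of those past 2-fold, 29.5% after median scaling, 28.2% after loess, 11.7% after spike-in scaling and 73.0% with the percentile of unflagged spots, and the share of all measured genes at least 2-fold lower ran from 2.48% to 9.35%. Signals near background limit the sizes for Prss2, Try4, Cpa1, Pnlip and Cpb1.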

Other observations

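The Reg genes encode small secreted lectins that acinar cells and injured epithelium make. A list of 7 was drawn up after the values of Reg1 and Reg2 had been seen. All 7 were well above background in the PBS pool and 3 in the TSG-6 pool. Over all genes with values, 1.44% were so in the PBS pool only and 2.05% in the TSG-6 pool only. Of all genes measured in the PBS pool only, 34.7% were lower by a bound of at least 2-fold. Reg1 and Reg2 are among the 7, so the counts of this list are a description only. Reg1 (at least 3.45-fold), Reg2 (at least 4.11-fold) and Reg3g (at least 2.58-fold) were lower in the TSG-6 pool, the bound of Reg3a was 1.91-fold with signals of 45.3 and 4.68, and Reg3b gave 159 and 65.3 (a difference of -0.93). Reg3d differed by 0.07, and Reg4 was 2.55-fold higher, with signals of 33.1 and 66.2. Under normexp the log2 values were -0.77 for Reg1, -0.75 for Reg2, -0.46 for Reg3g and 0.61 for Reg4, all under 2-fold.

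The carboxypeptidases outside the acinar enzymes, also listed after the data had been seen, ran differently. Cpb2, the plasma carboxypeptidase that hepatocytes secrete, gave 51674 and 57108 (a difference of 0.50), and Cpa3, the mast cell carboxypeptidase, gave 55.5 and 71.6 (0.72). Cpa6 differed by 0.15, and Cpa4 and Cpa5 were not well above background on either array.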
